A study of Mus musculus with 21 samples.

Results

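CpG methylation and coverage were described for 2 intervals of the mouse genome named for their clusters of KRAB zinc-finger genes, in DNA that stayed in nucleosomes in sperm. The members were all CpGs listed between 175.0 and 177.8 Mb on chromosome 2 and between 145.0 and 147.7 Mb on chromosome 4 (mm9), chosen by position alone. There were 12471 of them, 1463 on chromosome 2 and 11008 on chromosome 4, among 15544856 listed CpGs in all. They were compared with the other 2113832 listed CpGs of the same 2 chromosomes.

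The series holds samples of mouse sperm and round spermatids, and its title relates retained nucleosomes to the density and methylation of CpGs. A single sample was analysed here, a bisulfite library made from mononucleosomal DNA of C57BL/6 sperm, and the other samples were not analysed here. The sperm had been gathered by swim-up, which keeps motile cells, and their chromatin was cut with micrococcal nuclease (MNase), which digests DNA between nucleosomes. The number of animals is not stated in the labels. Each CpG carries a count of all reads and a count of methylated reads, 60995624 CpG reads in total with a median of 3 per listed CpG. CpGs without reads are not listed. With 1 library there is no test between groups and no p-value. Intervals given after a value are 95% Wilson binomial intervals, except those of ratios of CpG pairs, which are explained there. They cover counting error only and are too narrow, since neighbouring CpGs share reads.

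KRAB zinc-finger proteins bind DNA through tandem arrays of C2H2 zinc fingers, and their KRAB domain recruits the co-repressor TRIM28, which brings in histone H3K9 methylation. Many of them silence retrotransposons. Their genes lie in clusters that grew by repeated tandem duplication, so neighbouring copies can be nearly identical in sequence, and a short read may then fit several places. A finger and its linker take up 28 amino acids, so the DNA of an array repeats every 84 bp.

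The gene content of the intervals was examined first. No gene annotation on mm9 was used, so names rest on RefSeq (GRCm38.p6) in its gene order and on the pattern of CpGs in RefSeq promoters of 300 bases (250 before to 50 after the start). Between Edn3 and Phactr3 on chromosome 2, RefSeq lists 32 protein-coding genes, 9 of them with Zfp symbols, and 25 pseudogenes. Between Tnfrsf8 and Miip on chromosome 4 it lists 19 protein-coding genes, 16 with Zfp symbols, and 56 pseudogenes. A promoter was placed on the mm9 positions where its spacing of CpGs occurred once on its chromosome with no extra listed CpG. With 8 or more CpGs at least 80% of them had to be listed, and with 5 to 7 all of them. Of promoters with 8 or more CpGs, 1762 of 2008 on chromosomes 2 and 4 were placed, and of those with 5 to 7, 201 of 343. All placed promoters followed the RefSeq order.

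Promoters of the chromosome 2 genes were poor in CpGs and nearly all repeated elsewhere. Of 31 coding genes with a promoter in the table, 31 had 5 or fewer CpGs (median 4), against 29.1% of the other coding genes of chromosomes 2 and 4 (median 16). At least 50% of the 25-base words recurred in promoters of other genes for 27 of the 31, against 2.96% of the others. None of the 10 chromosome 2 promoters with 5 CpGs could be placed, where 84% of the other promoters with 5 or more CpGs were. Most of those have 8 or more CpGs, and the nearer comparison is with the 201 of 343 placed among all promoters of 5 to 7 CpGs. The nearest placed promoters were those of Prelid3b, 0.702 Mb before the interval, and of Sycp2, 0.342 Mb after it.

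Chromosome 4 was less uniform. Of 14 coding genes with a promoter, 9 had 5 or fewer CpGs, and 6 shared at least 50% of their 25-base words with other promoters. Zfp600 and Rex2 illustrate the copies, since their promoters differ at 4 of 300 bases, shown here in capitals (RefSeq, GRCm38.p6, plus strand, 5′ to 3′). Both have 5 CpGs and neither could be placed.
Zfp600: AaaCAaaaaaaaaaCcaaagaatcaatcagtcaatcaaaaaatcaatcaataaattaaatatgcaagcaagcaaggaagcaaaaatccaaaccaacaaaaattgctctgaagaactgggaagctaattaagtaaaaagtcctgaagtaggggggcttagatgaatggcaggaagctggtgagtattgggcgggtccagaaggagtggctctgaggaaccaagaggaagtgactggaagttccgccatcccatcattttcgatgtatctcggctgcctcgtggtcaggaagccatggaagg
Rex2: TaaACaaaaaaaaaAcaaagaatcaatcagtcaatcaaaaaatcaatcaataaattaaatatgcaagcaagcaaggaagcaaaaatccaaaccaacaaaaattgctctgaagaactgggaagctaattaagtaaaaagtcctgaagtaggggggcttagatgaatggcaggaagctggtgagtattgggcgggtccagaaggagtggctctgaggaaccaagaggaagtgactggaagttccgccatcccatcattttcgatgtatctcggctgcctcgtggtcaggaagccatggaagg

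Promoters that could be placed among the zinc-finger genes numbered 4 of 9 with 5 or more CpGs. They are printed with each CpG in capitals, since their methylation could be read (RefSeq, GRCm38.p6, 5′ to 3′ on the strand of the gene, which is minus for Zfp933). They show 2 start sites of Zfp982, which differ in their number of CpGs.
Zfp982, promoter with 16 CpGs: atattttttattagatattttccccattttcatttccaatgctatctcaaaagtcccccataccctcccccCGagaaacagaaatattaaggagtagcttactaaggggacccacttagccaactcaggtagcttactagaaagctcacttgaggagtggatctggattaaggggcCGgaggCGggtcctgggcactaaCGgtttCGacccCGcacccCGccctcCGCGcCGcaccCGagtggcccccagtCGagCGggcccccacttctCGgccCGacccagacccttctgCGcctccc
Zfp982, promoter with 5 CpGs: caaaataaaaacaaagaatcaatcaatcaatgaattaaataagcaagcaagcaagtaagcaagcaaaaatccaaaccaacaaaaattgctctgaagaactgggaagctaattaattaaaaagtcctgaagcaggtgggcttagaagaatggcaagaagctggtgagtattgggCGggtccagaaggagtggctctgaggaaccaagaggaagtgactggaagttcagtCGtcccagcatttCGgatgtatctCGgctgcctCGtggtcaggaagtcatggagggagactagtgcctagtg
Zfp985: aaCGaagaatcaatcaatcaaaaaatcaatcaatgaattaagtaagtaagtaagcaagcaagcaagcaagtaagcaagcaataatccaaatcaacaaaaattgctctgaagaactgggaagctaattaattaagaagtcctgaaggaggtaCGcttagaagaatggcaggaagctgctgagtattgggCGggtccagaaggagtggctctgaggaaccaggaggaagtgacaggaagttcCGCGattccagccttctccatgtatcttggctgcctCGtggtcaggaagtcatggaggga
Zfp933: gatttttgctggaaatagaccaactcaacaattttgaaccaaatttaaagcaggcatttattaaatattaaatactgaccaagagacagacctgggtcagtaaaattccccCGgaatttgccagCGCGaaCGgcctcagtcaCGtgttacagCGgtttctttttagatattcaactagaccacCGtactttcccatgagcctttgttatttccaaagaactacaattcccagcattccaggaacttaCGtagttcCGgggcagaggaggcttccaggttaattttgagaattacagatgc

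These promoters spanned the whole range of methylation. The CpG-rich Zfp982 promoter lay at chr4:146816973-146817272, with 14 of its 16 CpGs listed, and 3 of 91 CpG reads were methylated, a level of 3.3% (1.13 to 9.25). Its reads per CpG ran from 1 to 10. The other Zfp982 promoter, at chr4:146866276-146866575, had 18 of 20 reads methylated, 90% (69.9 to 97.2), with 7 of 9 methylated at the most deeply read of its 5 CpGs and every read methylated at the others. Zfp985, at chr4:146927136-146927435, was intermediate, with 20 of 39 reads methylated over 6 CpGs, 51.3% (36.2 to 66.1). The 5 of these with more than 1 read ranged from 3 of 9 to 4 of 6 methylated reads. Zfp933, at chr4:147222478-147222777, had 1 methylated read of 36 over 9 CpGs, 2.78% (0.492 to 14.2). Placed promoters of 8 or more CpGs outside the intervals had a median level of 1.67% (quartiles 0 and 3.57, 1714 promoters), and the CpG-rich Zfp982 promoter and Zfp933 lay inside those quartiles. The other Zfp982 promoter and Zfp985 have fewer than 8 CpGs and were not set against them. For Zfp985, 39.1% of the 25-base words recurred in promoters of other genes, against 3.99% for the CpG-rich Zfp982 promoter and 1.81% for Zfp933. For the other Zfp982 promoter this share is not given here. Whether reads of other copies were placed on these promoters was not tested.

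The gene content changed near the end of the chromosome 4 interval. Beyond Zfp933, the placed promoters belonged to Miip, Fv1, Mfn2, Plod1, 2510039O18Rik, Clcn6, Agtrap, Draxin, Mad2l2, Fbxo6, Fbxo44 and Fbxo2, none of which carries a zinc-finger symbol. Fv1 is a retrovirus restriction gene, Mfn2 a mitochondrial fusion gene and Plod1 a lysyl hydroxylase gene. The 3 promoters of Miip and Fv1 overlap and share CpGs, and had 0 methylated reads, for example 0 of 66 at a Miip promoter (upper bound 5.50%). Mfn2 stood at 5.81% with 9 of 155 reads (3.08 to 10.7), and Draxin at 2.25% with 5 of 222 (0.966 to 5.16). A promoter of Fbxo44 was intermediate, with 15 of 33 reads methylated (45.5%, 29.8 to 62.0). The label therefore does not cover the end of the interval, and the first 2.2 Mb (to 147.2 Mb, before Zfp933) and the last 0.5 Mb are given apart from here on. This division was made after the data were seen.

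Both intervals were sparsely listed. Chromosome 2 had 0.522 listed CpGs per kb and the first part of the chromosome 4 interval 2.08, against 6.49 in the rest of the 2 chromosomes. The last part of the chromosome 4 interval had 12.9. Of the 28 windows of 100 kb on chromosome 2, 15 held no listed CpG and 19 held fewer than 100. In the first part of the chromosome 4 interval these were 2 and 8 of 22 windows. In the rest 0.338% of the windows had none and 0.891% had fewer than 100.

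Long stretches without a listed CpG made up much of this. The longest ran from 175005759 to 176548813 on chromosome 2, 1543 kb, followed there by 176615927 to 176830331 (214 kb) and 177394479 to 177451613 (57.1 kb). On chromosome 4 the longest were 145858323 to 146018164 (160 kb), 146366433 to 146515115 (149 kb) and 145771014 to 145858323 (87.3 kb), so 2 of them adjoin at a single listed CpG. Distances of 10 kb or more covered 65.8% of the chromosome 2 interval and 37.1% of the first part of the chromosome 4 interval, but 0.467% and 1.72% of the rest of chromosomes 2 and 4. Positions without a read are not told apart from gaps of the assembly, since the mm9 sequence was not used here.

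**Figure D1:**
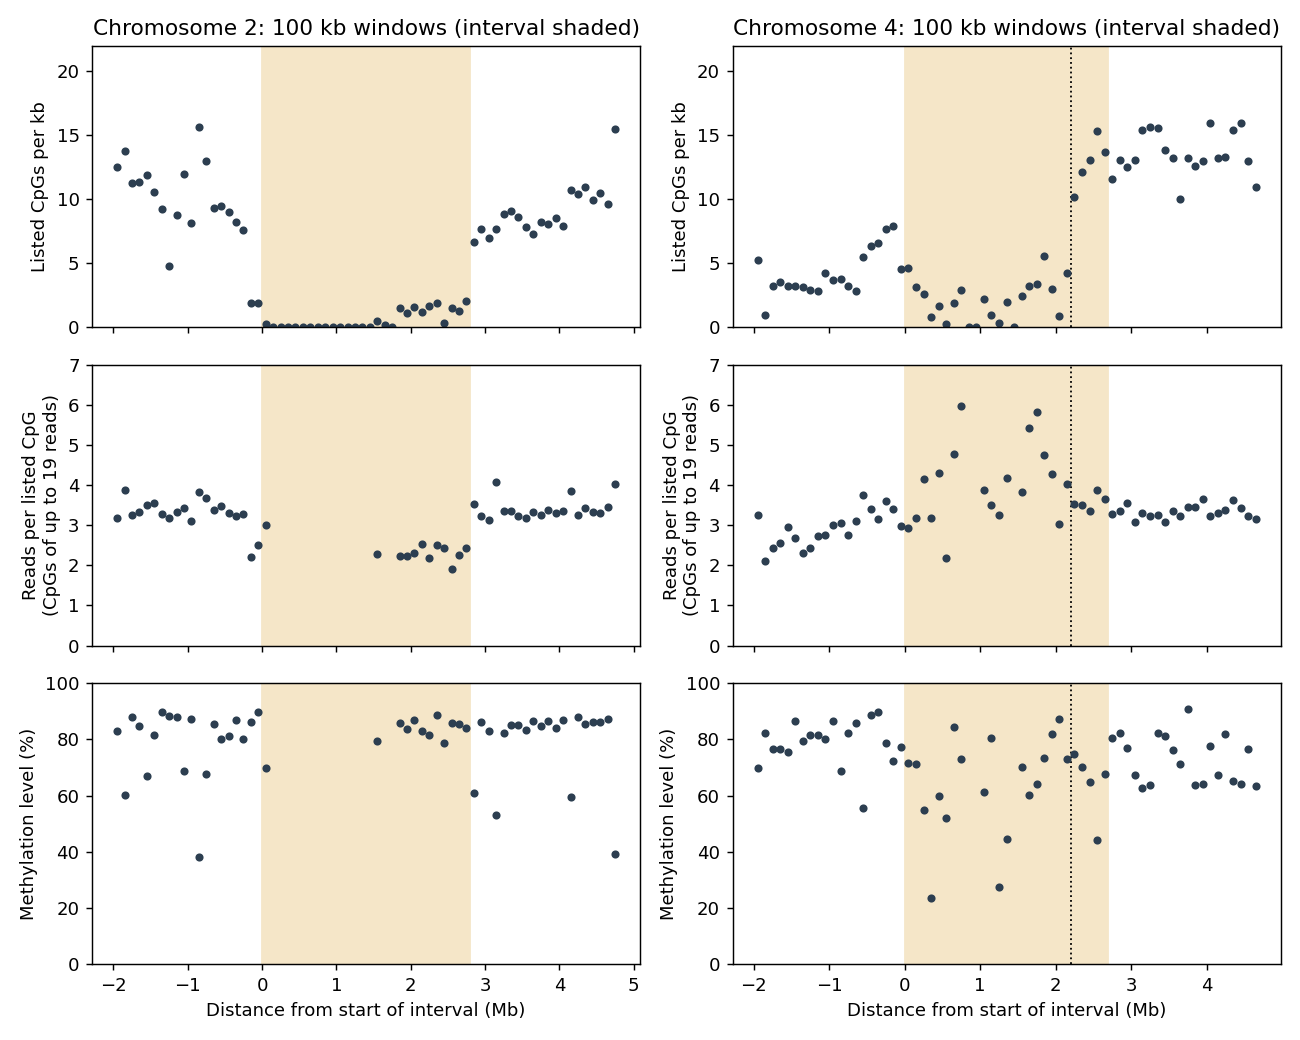
Listed CpGs per kb, reads per listed CpG (CpGs of up to 19 reads) and methylation level in % in windows of 100 kb, against the distance in Mb from the start of each interval, which is shaded. Each point is 1 window (the 2 lower rows show windows of 20 or more listed CpGs), and the dotted line marks 2.2 Mb on chromosome 4. Chromosome 2 windows lie low in the top and middle rows, and chromosome 4 windows before the line reach 5.97 reads per listed CpG.

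Where CpGs were listed, the 2 intervals departed from the rest in opposite directions over CpGs of up to 19 reads. There, chromosome 2 had 2.30 ± 1.59 reads per listed CpG (SD over 1463 CpGs), the first part of the chromosome 4 interval 4.26 ± 3.61 (4455 CpGs) and its last part 3.59 ± 2.39 (6437 CpGs), against 3.28 ± 2.27 in the rest. The direction on chromosome 4 depends on a limit on reads, since the rest of chromosome 2 includes a CpG with 1958634 reads. With no limit, and the rest weighted to the same surroundings as explained next, the ratio to the rest was 0.834 in the first part, 0.561 over the whole chromosome 4 interval and 0.411 on chromosome 2. With CpGs of up to 1000 reads it was 1.19 over the whole chromosome 4 interval. On chromosome 2 the deepest CpG had 10 reads and 41.6% of the CpGs had 1 read (39.1 to 44.2), against 23.6% in the rest. In the first part of the chromosome 4 interval 23.6% had 1 read (22.3 to 24.8), about as in the rest, but the deepest CpG had 232.

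These departures, with the limit of 19 reads, held at equal local CpG number, a count of the listed CpGs no further than 100 bp away, the CpG itself included. With the rest weighted to the same local numbers, chromosome 2 had 2.30 reads where the rest had 3.0, a ratio of 0.768. The first part of the chromosome 4 interval had 4.26 against 3.36, a ratio of 1.27, and the last part 3.59 against 3.5, a ratio of 1.03. On chromosome 4 the excess was seen at low and at high local numbers. At 1 or 2 local CpGs the first part had 3.99 reads and the rest 2.81, at 3 to 5 it had 4.26 and the rest 3.25, at 6 to 9 it had 3.84 and the rest 3.64, and at 10 to 14 it had 3.96 and the rest 4.22. At 15 or more it had 6.00 and the rest 5.33. Single numbers went both ways. At 18 the first part had 6.28 (43 CpGs) and the rest 4.97, but at 15 it had 4.51 (49 CpGs) and the rest 4.64. At 8 it had 3.05 (94 CpGs) and the rest 3.78, and at 9 it had 3.17 (84 CpGs) and the rest 3.90. Chromosome 2 was lower in each class that it held, from 2.23 reads at 1 or 2 local CpGs to 3.33 at 10 to 14, where it had 36 CpGs. Local number counts only listed CpGs, so it is itself lower where reads are few.

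Single windows showed the same contrast. Of 12 chromosome 2 windows with 20 or more listed CpGs, 10 had fewer than 2.5 reads per listed CpG, against 4.51% of such windows in the rest. The lowest was 177500000 to 177600000, with 1.91 reads over 149 CpGs, followed by the windows from 177200000 (2.19) and from 176800000 (2.23). The highest was the first window of the interval, with 3.0 reads over only 22 CpGs, all before the longest empty stretch. The next were those from 177100000 (2.53) and 177300000 (2.49). In the first part of the chromosome 4 interval 10 of 19 such windows exceeded 4 reads per listed CpG, against 1.88% in the rest. The highest were those from 145700000 (5.97 reads over CpGs of up to 19), 146700000 (5.83) and 146600000 (5.43). The lowest in the interval were those from 145500000 (2.17, over 23 CpGs) and 147000000 (3.03) and the first window (2.93). More than 1% of the CpGs had 20 or more reads in 6 of the 19 windows, against 1.51% of windows in the rest. Compared with windows of the rest that had as few listed CpGs (at least 100 and under 200), the 8 chromosome 2 windows ranged from 1.91 to 2.53 reads with a median of 2.24. The 40 windows of the rest ranged from 2.15 to 3.88 with a median of 2.57, so the 2 ranges overlap. These 40 include the windows just before the chromosome 2 interval, from 174800000 (190 CpGs, 2.19 reads) and from 174900000 (186 CpGs, 2.52 reads). The 3 windows with as few listed CpGs in the first part of the chromosome 4 interval ranged from 4.19 to 4.78, above all 40. With at least 200 and under 400 listed CpGs, however, the 8 windows of the first part ranged from 3.19 to 5.97 (median 4.22) and overlapped the 1040 of the rest, which ranged from 2.16 to 4.51 (median 2.7). With at least 20 and under 100, the 5 windows ranged from 2.17 to 3.51 and overlapped the 13 of the rest, from 1.97 to 2.99.

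**Figure D2:**
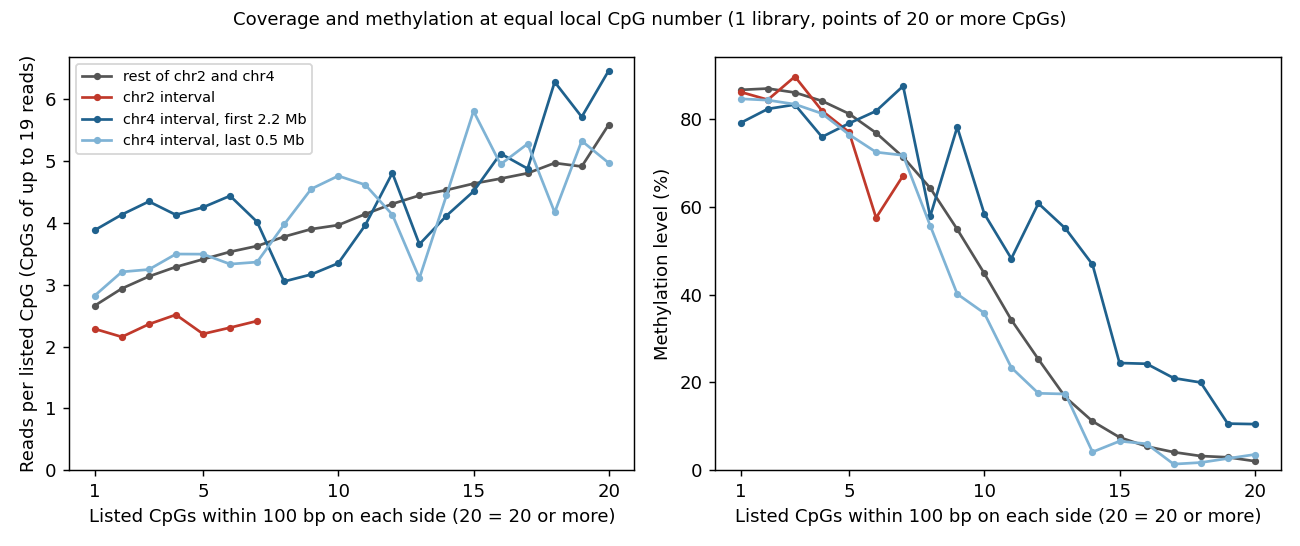
Reads per listed CpG (left, CpGs of up to 19 reads) and methylation level in % (right) against local CpG number, for the chromosome 2 interval, both parts of the chromosome 4 interval and the rest of chromosomes 2 and 4. Each point pools at least 20 CpGs of 1 library. The chromosome 2 line lies below the rest on the left, and the line of the first 2.2 Mb on chromosome 4 lies above it at low local numbers.

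Deeply read CpGs were more frequent in the first part of the chromosome 4 interval than in the rest, and none was seen on chromosome 2. In the first part 113 of 4568 CpGs had 20 or more reads, 2.47% (2.06 to 2.97), in the last part 3 of 6440, 0.0466% (0.0158 to 0.137), and in the rest 0.0776%. At equal local CpG number the rest had 0.117% for the first part, a ratio of 21.2. On chromosome 2 it was 0 of 1463, which allows a share of up to 0.205% by a floor of 3 counts and 0.262% by the Wilson interval, and the rest at equal local number had 0.0227%, so a deficit was not detectable at this depth. With a threshold of 10 reads it was: 2 of 1463 CpGs, 0.137% (0.0375 to 0.497), against 1.12% in the rest at equal local number. The first part of the chromosome 4 interval had 12.04% at 10 or more reads (11.1 to 13.0) against 2.63%. Its 113 CpGs with 20 or more reads lay in 6 windows of 100 kb. Those from 146700000, 146800000 and 145700000 held 49, 24 and 19 of them.

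**Figure D3:**
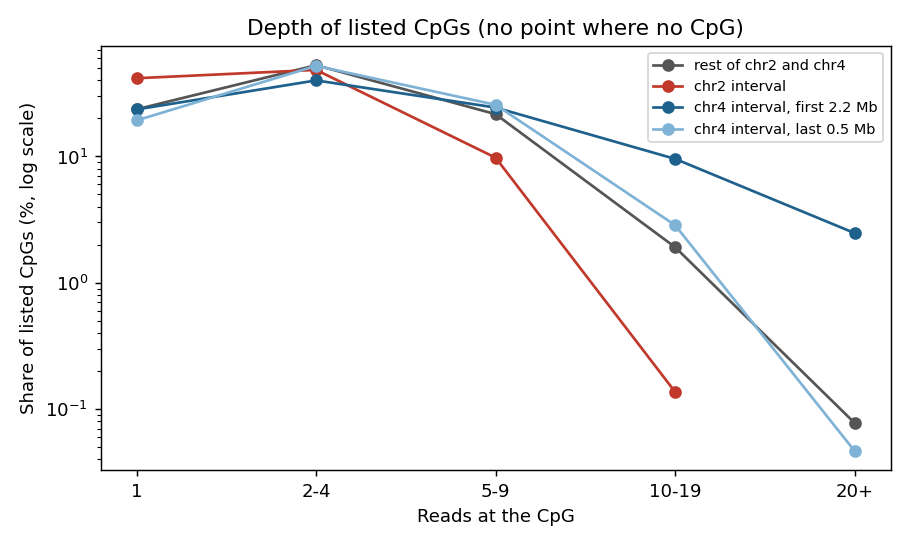
Share of listed CpGs in % (log scale) by the number of reads at the CpG, for the chromosome 2 interval, both parts of the chromosome 4 interval and the rest of chromosomes 2 and 4. At 20 or more reads the first 2.2 Mb on chromosome 4 reach 2.47% against 0.0776% in the rest, and chromosome 2 has no point.

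The deep CpGs of the first part differed from those elsewhere in local CpG number and, without matching for it, in level. Of the 113, 90 (79.6%) had 5 or fewer local CpGs, against 19.8% of the 1641 in the rest. Their levels were low (under 20%) at 19, intermediate at 49 and high (over 80%) at 45, whereas 76.8% of those in the rest were low, 14.9% intermediate and 8.23% high. Among all CpGs with 10 or more reads the intermediate share was 38.5% in the first part (212 of 550) and 17.4% in the rest. Among CpGs with 10 to 19 reads, 27.2% in the first part and 44.8% in the rest had 10 or more local CpGs. The shares of levels are not at equal local CpG number. Whether local CpG number accounts for the levels of the deep CpGs was not tested. Whether reads of several copies were placed on such CpGs was not tested.

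They were grouped in 38 places, joined where neighbours were within 1000 bp, of which 17 were single CpGs. A place at 145427185 to 145427223 held 8 deep CpGs within 39 bp, in dense surroundings (median 20 local CpGs), with 37 of 219 reads methylated, 16.9% (12.5 to 22.4). Another dense place, 146817423 to 146817757, lay just past the CpG-rich Zfp982 promoter and had 11 of 162 reads methylated, 6.79% (3.83 to 11.7). The third, 146649203 to 146650018, had 22 of 132 reads methylated, 16.7% (11.3 to 23.9). The other places were sparse, with a median of 5 or fewer local CpGs, and most were more methylated. The stretch 146794301 to 146795546 held 9 deep CpGs at 74.7% (69.2 to 79.6), the stretch 146796547 to 146799848 held 9 at 54.8% (49.0 to 60.6), and 146806240 to 146808294 held 8 at 73.8% (68.6 to 78.4). The CpG with 232 reads stood alone at 146876723, with 173 methylated reads, 74.6% (68.6 to 79.7).

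Among windows of 1 kb with 5 or more listed CpGs, 28 of 746 on the chromosome 4 interval had 10 or more reads per listed CpG, against 0.0561% in the rest, and none of 70 on chromosome 2 did. The deepest were 146799000 to 146800000 (30.8 reads, level 57.8%, 50.6 to 64.7), 146794000 to 146795000 (24.6 reads, 92.4%, 87.5 to 95.5) and 145740000 to 145741000 (20.2 reads, 67.3%, 59.7 to 74.04). On chromosome 2 the deepest had 4.60 reads, at 177099000 to 177100000, with all 23 reads methylated. The next were those from 177296000 (4.29 reads, 76.7%, 59.1 to 88.2) and 177304000 (4.25 reads, 88.2%, 73.4 to 95.3).

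The methylation level itself departed little from the rest. Over CpGs of up to 19 reads it was 84.5% on chromosome 2 (83.2 to 85.7), 68.2% in the first part of the chromosome 4 interval (67.5 to 68.8), 62.7% in its last part (62.1 to 63.3) and 73.0% in the rest. At equal local CpG number the rest had 83.2%, 67.7% and 66.3%, so the differences were 1.30, 0.48 and -3.61 percentage points. For the whole chromosome 4 interval, at 65.2%, the difference was -1.76 points. With all reads counted, the differences were 6.65 points on chromosome 2 and 4.31 on the chromosome 4 interval, because the rest then includes the CpG with 1958634 reads and its neighbours, and with CpGs above 1000 reads left out they were 1.42 and -2.32.

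Behind the small difference of the first part lay opposite departures by local number. At 1 or 2 local CpGs its level was 80.6% (79.8 to 81.4) against 86.8% in the rest, and at 3 to 5 it was 80.3% (79.1 to 81.4) against 84.3%. At 6 to 9 it was higher, 79.2% (77.3 to 80.9) against 70.4%, as at 10 to 14, 54.1% (51.2 to 57.1) against 29.3%, and at 15 or more, 13.8% (12.6 to 15.1) against 2.85%. The last part was at 84.4%, 80.9%, 63.1%, 23.0% and 3.68% in the 5 classes, lower than the rest in all but the densest. On chromosome 2 the level was 85.5% at 1 or 2 local CpGs (83.9 to 86.9) and 84.6% at 3 to 5 (82.1 to 86.7), against 86.8% and 84.3% in the rest. It was 69.5% at 6 to 9 (63.3 to 75.1), against 70.4%, and 95.8% at 10 to 14 (90.6 to 98.2), where the rest had 29.3%, over 36 CpGs and 120 reads. By depth, the level of the chromosome 2 interval was 84.4% for CpGs with 1 read (81.3 to 87.1) and 87.0% for those with 5 to 9 (84.5 to 89.1), and that of the rest 82.7% and 69.9%. These values are not at equal local CpG number. The share of CpGs with 10 or more local CpGs rose from 4.07% to 16.2% between those depths in the rest and from 0.985% to 6.29% on chromosome 2.

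Levels of single windows had a lower median in the first part of the chromosome 4 interval. Over windows of 20 or more listed CpGs the first part ranged from 23.5% (145300000 to 145400000, 75 CpGs) to 87.4% (147000000 to 147100000, 89 CpGs), with a median of 70.4% and quartiles of 57.4% and 73.2%, and chromosome 2 from 69.7% to 88.7%, with a median of 83.8%. The rest had a median of 83.4% with quartiles of 71.1% and 87.2%. It ranged from 9.44% to 96.8%, so every window of both intervals lay within its range. At similar numbers of listed CpGs, however, some first-part windows lay below all of the rest. Windows of similar number are not at equal local CpG number. Of the 75 CpGs of the lowest window, 21 lay in the 500 bp from 145335000 (level 7.14%) and 20 in the 500 bp from 145364000 (2.06%). With at least 20 and under 100, the first part had a median of 52% (5 windows) and the rest a minimum of 53.4% (13 windows). With at least 100 and under 200 these were 59.9% (3 windows) and 78.6% (40 windows). With at least 200 and under 400, the first part (54.8% to 81.9%) lay inside the rest (38.1% to 96.5%). Chromosome 2 windows lay inside the rest in each class.

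CpG-dense DNA was present on chromosome 4 and hardly listed on chromosome 2. CpG-dense bins were 500 bp long with 15 or more listed CpGs and at least 20 CpG reads. Among bins with 20 or more reads, 86 of 675 on the chromosome 4 interval were dense and 0 of 17 on chromosome 2, against 9.7% in the rest. The first part of the chromosome 4 interval had 30 of 259 and its last part 56 of 416. At 17 bins the count of 0 is not told apart from the share in the rest. The fullest bin of chromosome 2 held 13 listed CpGs. Of its 6 bins with 10 to 14, 4 were high, 1 intermediate and 1 low. In the rest 64.9% of such bins were high, 27.4% intermediate and 7.70% low, so the 6 are not told apart from them.

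Most dense bins of the chromosome 4 interval were low, that is under 20%, and most of the low ones lay in its last part. Of the 86, 50 were low, 19 intermediate and 17 high, 58.1%, 22.1% and 19.8%. In the rest these shares were 61.3%, 16.6% and 22.1%. The first part had 16 low, 6 intermediate and 8 high bins, and the last part 34, 13 and 9, so neither part is far from the background shares. Among bins of 20 or more CpGs, however, the median level was 13.4% in the first part (21 bins) and 3.21% in the last part (33 bins), against 2.31% in the rest (5224 bins). Low bins of the first part had a median of 5.92 reads per listed CpG (quartiles 4.47 and 8.17, 16 bins), those of the last part 4.64 and those of the rest 4.63 (quartiles 3.63 and 5.85), so the quartiles of the first part overlap those of the rest.

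The dense bins with the most CpGs included 3 in the last part. These were 147315000 to 147315500 with 64 CpGs and a level of 1.52% (0.698 to 3.27), overlapping the promoter of 2510039O18Rik, 147504500 to 147505000 with 53 CpGs and 0.897% (0.246 to 3.21), at the promoters of Draxin and Mad2l2, and 147662000 to 147662500 with 51 CpGs and 2.09% (0.962 to 4.49). The other 2, with 47 CpGs each, lay in the first part and were more methylated. They were 145054000 to 145054500 at 15.8% (10.8 to 22.4) and 146316000 to 146316500 at 9.64% (6.71 to 13.7). No methylated read was found in 5 dense bins, all in the last part. They were 147242500 to 147243000 (0 of 128, upper bound 2.91%), at Miip and Fv1, 147413000 to 147413500 (no methylated read over 32 CpGs, upper bound 2.24%), at Clcn6, and 147526000 to 147526500 (0 of 25, upper bound 13.3%), at Fbxo6. The other 2 were 147533500 to 147534000 (0 of 88, upper bound 4.18%), at a promoter of Fbxo44, and 147534500 to 147535000 (0 of 124, upper bound 3.0%), at Fbxo2. The highest levels were 98.4% at 147615500 to 147616000, 98.3% at 147319000 to 147319500 and 98.2% at 147284500 to 147285000, all in the last part.

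Some intermediate and low bins of the first part adjoined. At 146315500 a bin of 68.9% (56.4 to 79.1) bordered the bin of 9.64%, and at 145230000 a bin of 61.2% (47.2 to 73.6) bordered one of 7.02% (4.43 to 10.96). A bin of 44 CpGs at 146561500 to 146562000 stood at 32.6% with 310 reads (27.6 to 38.0). The deepest dense bin, 145427000 to 145427500, had 13.4 reads per listed CpG over 35 CpGs and a level of 16.4% (13.3 to 20.04).

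**Figure D4:**
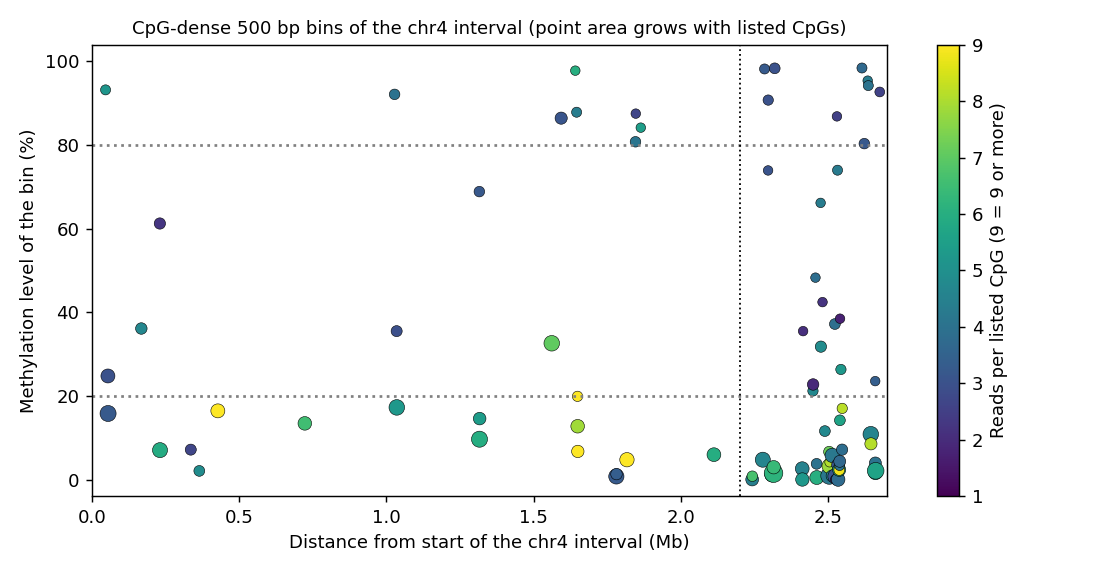
Methylation level in % of the 86 CpG-dense bins of the chromosome 4 interval against distance from its start in Mb. Point area grows with the number of listed CpGs, colour gives reads per listed CpG, and dotted lines mark 20%, 80% and 2.2 Mb. The bins crowd beyond 2.2 Mb, and most bins before it that lie under 20% are above the 2.31% that is the median of bins of 20 or more CpGs in the rest.

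Listed CpGs of chromosome 2 were in excess at a spacing of 84 bp, the length of a zinc finger with its linker. Whether these CpGs lie in zinc-finger arrays was not tested, since no mm9 sequence was read. There were 29 pairs of listed CpGs exactly 84 bp apart, where the distances of 74 to 82 and 86 to 94 bp had a mean of 6.56 pairs, a ratio of 4.42 (2.81 to 6.03 by counting error). At the next multiple of that step the ratio was 5.58 (3.25 to 7.91, 22 pairs) and at the one after it 6.17 (3.70 to 8.64, 24 pairs). The intervals of these ratios take the count of pairs as Poisson and the nearby mean as fixed. CpGs in a row at such steps form several of the pairs. The ratios are therefore not independent, and their intervals are too narrow. In the first part of the chromosome 4 interval the ratio at 84 bp was 0.831 (0.633 to 1.03, 68 pairs), and in the rest of chromosomes 2 and 4 it was 1.016 and 1.005. At the next multiples the first part had 1.19 (0.925 to 1.45) and 1.25 (0.945 to 1.55). The excess was thus seen in the listed CpGs of chromosome 2 and was not detectable in those of chromosome 4 at this depth.

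Chains of 3 or more CpGs at steps of 84 bp took in 25 CpGs of chromosome 2, 1.71% of its listed CpGs, against 0.274% in the rest. They formed 8 chains at 6 places, while steps of nearby length gave a mean of 0.0556 chains. The longest, with 4 CpGs, ran from 177768101 to 177768353 and had 10 of 11 reads methylated. Others were at 176871278 to 176871446 (7 of 7 reads) and 177099682 to 177099850 (12 of 12 reads), the latter inside the deepest 1 kb window of that interval. Pooled, the chain CpGs had a level of 95.7% (88.0 to 98.5, 69 reads), and the other CpGs of the interval with the same local numbers 82.5%. Their coverage was 2.76 reads per CpG, against 2.29. On chromosome 4, 16 chains lay within the 4 to 18 found at nearby steps, so no excess at 84 bp was seen. The longest there were those from 145053993 to 145054245 (2 of 16 reads methylated) and 146649878 to 146650130 (2 of 28), followed by 145054079 to 145054247 (1 of 11), with few methylated reads.

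**Figure D5:**
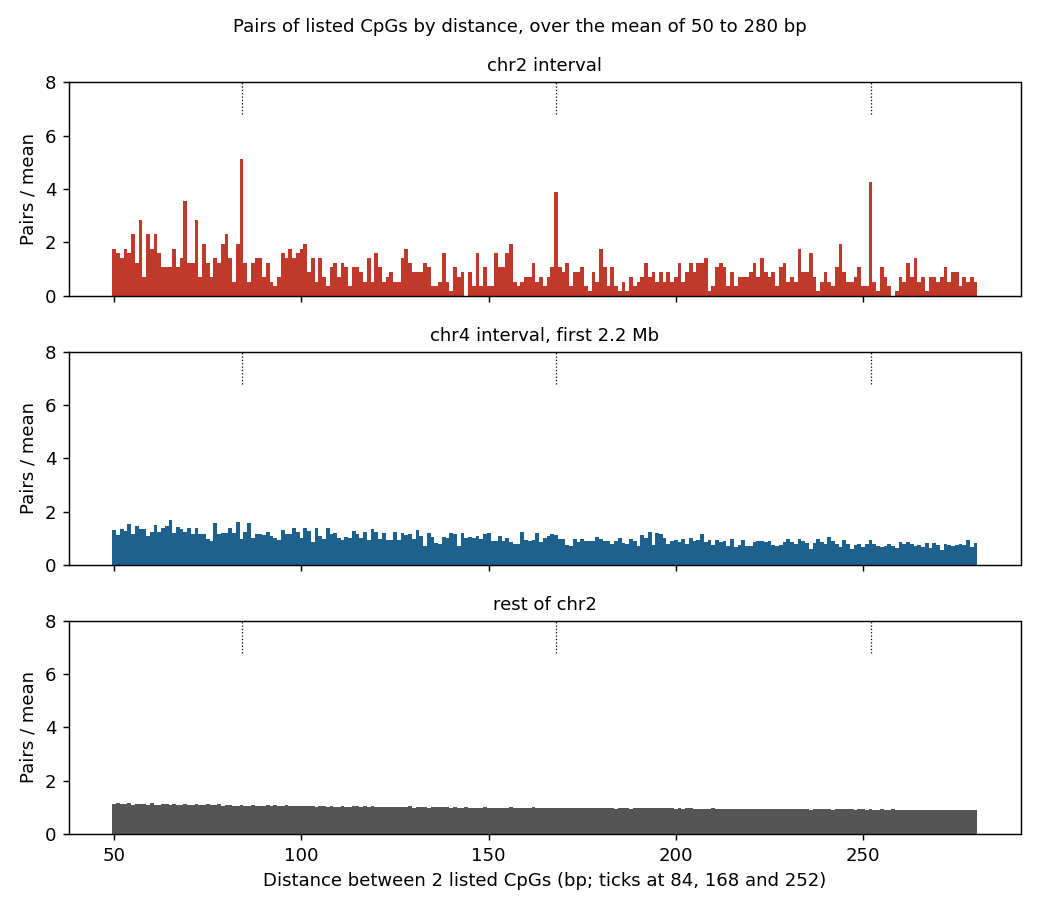
Number of pairs of listed CpGs at each distance from 50 to 280 bp, divided by the mean over these distances, for the chromosome 2 interval, the first 2.2 Mb of the chromosome 4 interval and the rest of chromosome 2. Ticks mark 84 bp and its next 2 multiples. The chromosome 2 interval peaks at the ticks, with 29, 22 and 24 pairs, and the other panels show no such peaks at the ticks. Off the ticks, the chromosome 2 interval also reaches 20 pairs at 69 bp and 16 pairs at 57 and at 72 bp.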

How the data were processed

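The deposited table of 1 bisulfite library gives raw counts of all and of methylated reads per CpG, per the file headers, and the authors applied no normalization that the table shows. Bowtie and mm9 were used, per the submitters' processing notes. Trimming, alignment settings, conversion rate and the treatment of duplicates and of reads that fit several places were not stated in the labels or the file. Positions are as listed and may be shifted by 1 bp.

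Members, lists and tests were chosen with earlier results of these data known. Levels are methylated over all reads. The rest was weighted to the local CpG numbers (1 to 19, and 20 or more) of each interval. Regions were named by rank, 3 or 5 per interval, on listed CpGs, level, reads per CpG, distance or chain length. Placing RefSeq promoters by CpG pattern, the division of the chromosome 4 interval and grouping CpGs of 20 or more reads were added after seeing the data. The other samples were not analysed here. Alternatives were other read limits, a wider radius for local CpG number, the other autosomes as the rest, other bins and limits of state, and longer chains. On simulated reads at 11008 CpGs of the chromosome 4 interval, a ratio of 1.5 came out as 1.50. The simulated counts were Poisson with a mean set by local CpG number, kept CpGs without reads and held no extreme depths. They check the arithmetic of the weighting and not the effect of such depths. Python 3.11.15, numpy 2.4.6, pandas 2.3.3, scipy 1.17.1 and matplotlib 3.10.9 were used.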

Additional observations from a re-analysis of the deposited data

How the results depend on the processing

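No paired analysis was possible because 1 library was analysed. Of 48 alternative values, 17 stayed within the counting interval of the main value, 27 moved beyond it and 4 reversed. The settings "up to 1000 reads" and "without the last 0.5 Mb" were chosen after seeing the data. Depth limits single CpGs, at a median of 3 reads in the library, and no CpG of the chromosome 2 interval had more than 10.

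The level difference on chromosome 4 (4.31 points with all reads) reversed to -1.76 with CpGs of up to 19 reads, to -2.32 with up to 1000 and to -1.58 against the other autosomes. It was 3.76 with CpGs of 10 or more reads, 3.02 with local number over 250 bp and 3.41 without the last 0.5 Mb. The last of these counts all reads, and over CpGs of up to 19 reads it was 0.48. Settings that keep the rest of chromosomes 2 and 4 without an upper limit on reads include its CpG of 1958634 reads. On chromosome 2 (6.65 points) it was 12.8 with CpGs of 5 or more reads (145 CpGs), 1.30 with up to 19 reads, 1.42 with up to 1000, 1.11 with 250 bp and 2.31 against the other autosomes. The ratio of reads on chromosome 4 (1.12) reversed to 0.561 with no limit on reads, where the rest holds the CpG of 1958634 reads. It was 1.19 with up to 1000 reads, 1.04 with up to 9 and 1.27 without the last 0.5 Mb. On chromosome 2 (0.768) it was 0.411 with no limit and 0.801 with 250 bp. The excess of CpGs with 20 or more reads on chromosome 4 (0.947 points) was 4.10 at a threshold of 10 reads, 0.025 at 50 and 2.36 without the last 0.5 Mb. On chromosome 2 (-0.0227 points) it was -0.985 at 10 reads and -0.0336 against the other autosomes. Listed CpGs per kb relative to the rest (0.0806 on chromosome 2, 0.629 on chromosome 4) were 0.506 and 1.09 over bins with a listed CpG. On chromosome 4 they were 0.654 against the other autosomes and 0.320 without the last 0.5 Mb. The intermediate share of dense bins (22.1%) was 13.9% in 1000 bp bins of 30 or more CpGs and 43.0% with limits of 10% and 90%. The pair ratio at 84 bp on chromosome 4 (0.966) was 0.831 without the last 0.5 Mb. Chains of 4 or more took in 4 CpGs on chromosome 2 and 8 on chromosome 4, against 25 and 50.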
